A study of Mus musculus with 12 samples.

Results

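The 10 cytotoxic effector genes described here were taken by symbol from a table of 35275 genes measured by RNA-Seq in purified CD4+ T cells of mice. They are the granule proteases Gzma, Gzmb, Gzmk and Gzmm, the pore former perforin (Prf1), the granule membrane protein Nkg7, the death ligand Fasl, the transcription factor Eomes, and the lectin-like receptors Klrg1 and Klrd1. All 10 were found, and all 10 were among the 13115 genes whose level averaged 0.5 FPKM or more across the 12 mice. FPKM, the unit of the table, is a fragment count divided by transcript length and by library total, so levels can be set side by side between genes.

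The study asked how the CD4+ T cells of lupus-prone mice respond to an antibody that induces transplant tolerance in healthy mice. By the study's methods, female mice in the third month of life were used, with 3 mice in each of 4 groups and 1 library for each mouse. B6 mice are C57BL/6, and SLE123 mice (B6.NZMSle1/Sle2/Sle3) are B6 mice that carry 3 congenic regions, Sle1, Sle2 and Sle3, that confer susceptibility to lupus. Treated mice of each strain received injections of 100 μg of anti-CD45RB (clone MB23G2), an antibody against a form of the surface phosphatase CD45, over a course of about a week, and the other mice were left untreated. The labels name neither the tissue nor a control antibody. The cells were purified by negative magnetic selection, and the study's methods add a split into CD25+ and CD25- cells that no title mentions, so the fraction sequenced is not known here. Libraries held 13563594 to 23642949 fragments. Pairs of libraries of a group differed by more in SLE123 than in B6: the chi-square per degree of freedom over genes, which is near 1 for sampling noise, was 3.24 to 5.79 in the B6 groups and 45.1 to 77 in untreated SLE123. In treated SLE123 it was 21.5 and 23.4 for the pairs with replicate 1 and 2.42 for the other pair.

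Cytotoxic lymphocytes kill by releasing granules that hold perforin, which opens the membrane of the target cell, and granzymes, which enter through the opening and cleave proteins inside. A separate route is the binding of Fas ligand to its receptor Fas. Natural killer (NK) cells and CD8+ T cells use these routes most, while CD4+ T cells that have been activated repeatedly, among them cells driven by Eomes, can acquire them too.

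After anti-CD45RB, 5 of the 10 genes rose and 1 fell in B6 mice, where 14.9% of all genes tested were called (8.74% higher and 6.12% lower). Gzma rose 10.9-fold, Klrg1 5.61-fold, Gzmb 2.98-fold, Nkg7 2.07-fold and Klrd1 1.46-fold, and Prf1 fell to 0.718 of its untreated level. In SLE123 mice none of the 10 passed the same limma test, in which 0.0381% of all genes were called (0.0152% higher and 0.0229% lower), and 4 of 10 had an unadjusted p below 0.05, against 10.4% of all genes. With voom, the other tool run, 0 of 10 passed and 4 of 10 had such an unadjusted p. Untreated SLE123 mice already had 18.0 times as much Gzma, 10.3 times as much Gzmk and 2.41 times as much Eomes as untreated B6 mice. In total 7 of the 10 genes differed between the untreated strains, 5 higher and 2 lower in SLE123, against 42.9% of all genes (22.8% higher and 20.1% lower). Between these groups 7 of the 10 did not overlap, against 58.6% of all genes. In bulk RNA such as this, a change in the number of cells of a type cannot be told apart from a change in RNA per cell.

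Throughout, the values of a group are given in the order of the replicate numbers in the titles (1, 3 and 5 for treated B6, 3, 4 and 5 for untreated B6, and 1, 2 and 3 for both SLE123 groups). Log2 fold changes are on the log2(FPKM + 1) scale, which understates the change of genes at low levels, and are given ± standard error. Fold values are ratios of mean FPKM. Adjusted p-values are from limma with Benjamini-Hochberg adjustment over the 13115 genes tested, and a gene was called where it was below 0.05. The comparisons between strains and between treatments share groups, so they are not independent of each other.

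The stretches of DNA just upstream of 4 of the genes are shown because these genes moved in treated B6 mice and RefSeq gives a start site for them: Gzma, Gzmb and Nkg7, which rose, and Prf1, which fell. They are from RefSeq, build GRCm38.p6, and are written 5′ to 3′ on the strand of the gene. Gzma is chr13:113100982-113101231 (minus strand), Gzmb is chr14:56262335-56262584 (minus strand), Nkg7 is chr7:43436888-43437072 (plus strand) and Prf1 is chr10:61297586-61297832 (plus strand). The Nkg7 and Prf1 stretches stop where the GENCODE M21 gene begins, which is upstream of the RefSeq start. Capitals mark the core TGTGGT, or its reverse complement ACCACA, that Runx factors are known to bind, and, where present, the core GGTGTG or CACACC of T-box factors such as T-bet and Eomes.
Gzma: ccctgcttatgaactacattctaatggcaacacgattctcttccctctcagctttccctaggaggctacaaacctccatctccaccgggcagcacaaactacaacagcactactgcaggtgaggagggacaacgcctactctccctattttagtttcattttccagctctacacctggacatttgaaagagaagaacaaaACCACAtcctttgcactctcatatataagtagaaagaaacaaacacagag
Gzmb: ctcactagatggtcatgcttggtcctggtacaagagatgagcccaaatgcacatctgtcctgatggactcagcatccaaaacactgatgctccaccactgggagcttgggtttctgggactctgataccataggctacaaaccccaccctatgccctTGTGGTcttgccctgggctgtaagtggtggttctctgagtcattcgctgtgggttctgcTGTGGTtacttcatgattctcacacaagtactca
Nkg7: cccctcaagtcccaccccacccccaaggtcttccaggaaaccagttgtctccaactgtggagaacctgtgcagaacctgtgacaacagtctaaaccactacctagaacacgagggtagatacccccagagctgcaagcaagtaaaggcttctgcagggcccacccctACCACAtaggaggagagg
Prf1: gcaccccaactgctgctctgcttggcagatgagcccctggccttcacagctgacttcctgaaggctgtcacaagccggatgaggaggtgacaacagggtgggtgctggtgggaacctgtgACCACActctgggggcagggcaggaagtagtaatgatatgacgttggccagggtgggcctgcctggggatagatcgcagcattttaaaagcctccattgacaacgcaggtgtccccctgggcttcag
In the whole windows of 250 bases before a RefSeq start, read on both strands, the Runx core was present upstream of 5 of the 8 members that have such a window (5 of 9 windows, since Gzmm has 2), against 14% of 32851 windows in the genome. It began at position -50 from the start in Gzma, at -93 and -34 in Gzmb, at -83 in Nkg7, at -130 in Prf1 and at -247 in the first window of Gzmm. The T-box core was present upstream of 4 of the 8 members and in 16.3% of all windows. It began at -75 in Gzmk, at -189 in the second window of Gzmm, at -13 in Nkg7, which is beyond the stretch printed, and at -190 in Fasl. The STAT pattern TTCNNNGAA lay in 2 of the 9 windows, those of Nkg7 and of the first start of Gzmm, and in 7.02% of all windows. The Runx and T-box cores can share letters. These are matches of letters, and no binding was measured. Klrg1 and Klrd1 were not searched.

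Gzma encodes granzyme A, a protease that cuts after basic residues. Its gene lies on the minus strand of chromosome 13 (113093825 to 113100981 in GRCm38). Untreated B6 mice had 1.48, 0.819 and 1.27 FPKM, which rest on 13 to 21 fragments a mouse, and treated B6 mice had 12.5, 7.51 and 18.8 FPKM. Untreated SLE123 mice had 21.6, 23.0 and 19.8 FPKM and treated SLE123 mice 31.7, 25.6 and 27.7. The 4 groups did not overlap, in the order untreated B6, treated B6, untreated SLE123 and treated SLE123. The rise with treatment in B6 was 2.60 ± 0.293 (limma adjusted p = 0.00339). In SLE123 the difference was 0.38 ± 0.101 (limma adjusted p = 0.437, unadjusted p = 0.00709), a ratio of 1.32. The strain-by-treatment interaction, which is the SLE123 effect less the B6 effect, was -2.22 ± 0.339 (limma interaction, adjusted p = 0.00596). SLE123 exceeded B6 by 3.37 ± 0.135 without treatment (limma adjusted p = 7.20e-06) and by 1.15 ± 0.281 with it (limma adjusted p = 0.0129).

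Gzmb encodes granzyme B, which cuts after aspartate and activates caspases in the target cell. It lies on chromosome 14 (56258838 to 56262260, minus strand). Untreated B6 mice had 3.28, 2.61 and 2.23 FPKM and treated B6 mice 7.96, 7.41 and 8.89. Untreated SLE123 mice had 4.14, 4.91 and 5.43 FPKM and treated SLE123 mice 10.7, 8.76 and 8.69. In both strains every treated mouse was above every untreated mouse, and the treated mice of the strains overlapped. The difference was 1.30 ± 0.119 in B6 (limma adjusted p = 0.00173) and 0.84 ± 0.124 in SLE123, a ratio of 1.95 that was not called (limma adjusted p = 0.159, unadjusted p = 0.000255). Gzmb in SLE123 was called with FPKM rescaled to TPM and in the fit of all 12 mice, and in none of the other alternatives. The interaction for Gzmb was -0.46 ± 0.177 (limma adjusted p = 0.141), so a difference between the strains in the response of this gene was not shown. Untreated SLE123 exceeded untreated B6 1.78-fold (0.65 ± 0.141, limma adjusted p = 0.00905), a call that was lost with TPM and with quantile normalization, and the treated mice of the strains differed by 0.19 ± 0.097 (limma adjusted p = 0.141), which was called when immunoglobulin genes were left out of the scaling (0.28, 0.0276).

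Gzmk encodes granzyme K, a trypsin-like protease that is prominent in memory T cells that express Eomes. It lies near Gzma on chromosome 13 (113171608 to 113225908, minus strand). Untreated B6 mice had 0.951, 2.04 and 2.53 FPKM and treated B6 mice 1.24, 2.67 and 1.73, and these groups overlapped. Untreated SLE123 mice had 16.7, 22.9 and 17.0 FPKM and treated SLE123 mice 12.3, 12 and 11, so every SLE123 mouse was above every B6 mouse. Gzmk exceeded B6 10.3-fold in untreated SLE123 mice (2.83 ± 0.230, limma adjusted p = 0.000123) and 6.27-fold in treated ones (2.18 ± 0.171, limma adjusted p = 0.000123). Within SLE123 every treated mouse was below every untreated mouse, at a ratio of 0.626, but the difference of -0.62 ± 0.129 was not called (limma adjusted p = 0.353). In B6 it was 0.04 ± 0.260, and the interaction was -0.66 ± 0.315 (limma adjusted p = 0.222). The gene overlaps Esm1 on the other strand, and whether the counting used strand is not given in the sources used here. Esm1 was between 0.119 and 0.454 FPKM in B6 and between 0.894 and 1.53 FPKM in SLE123, and its part in the Gzmk values was not tested.

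Gzmm encodes granzyme M, found mainly in NK cells and other innate lymphocytes. It lies on chromosome 10 (79689020 to 79695261, plus strand) and was the lowest of the 10 genes, with 18 to 47 fragments in a library. Untreated B6 mice had 1.16, 1.03 and 1.5 FPKM and treated B6 mice 1.72, 1.66 and 1.66. Untreated SLE123 mice had 0.846, 1.95 and 0.690 FPKM and treated SLE123 mice 1.38, 1.03 and 1.44. Treated B6 mice were above untreated ones without overlap, but the difference of 0.27 ± 0.097 was not called (limma adjusted p = 0.106). The remaining comparisons of Gzmm gave adjusted p-values of 0.0817 to 0.841 in limma, and the 0.0817 was that of treated SLE123 against treated B6 (-0.24 ± 0.097), which was called with 4 of the 6 other scalings of the libraries.

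**Figure D1:**
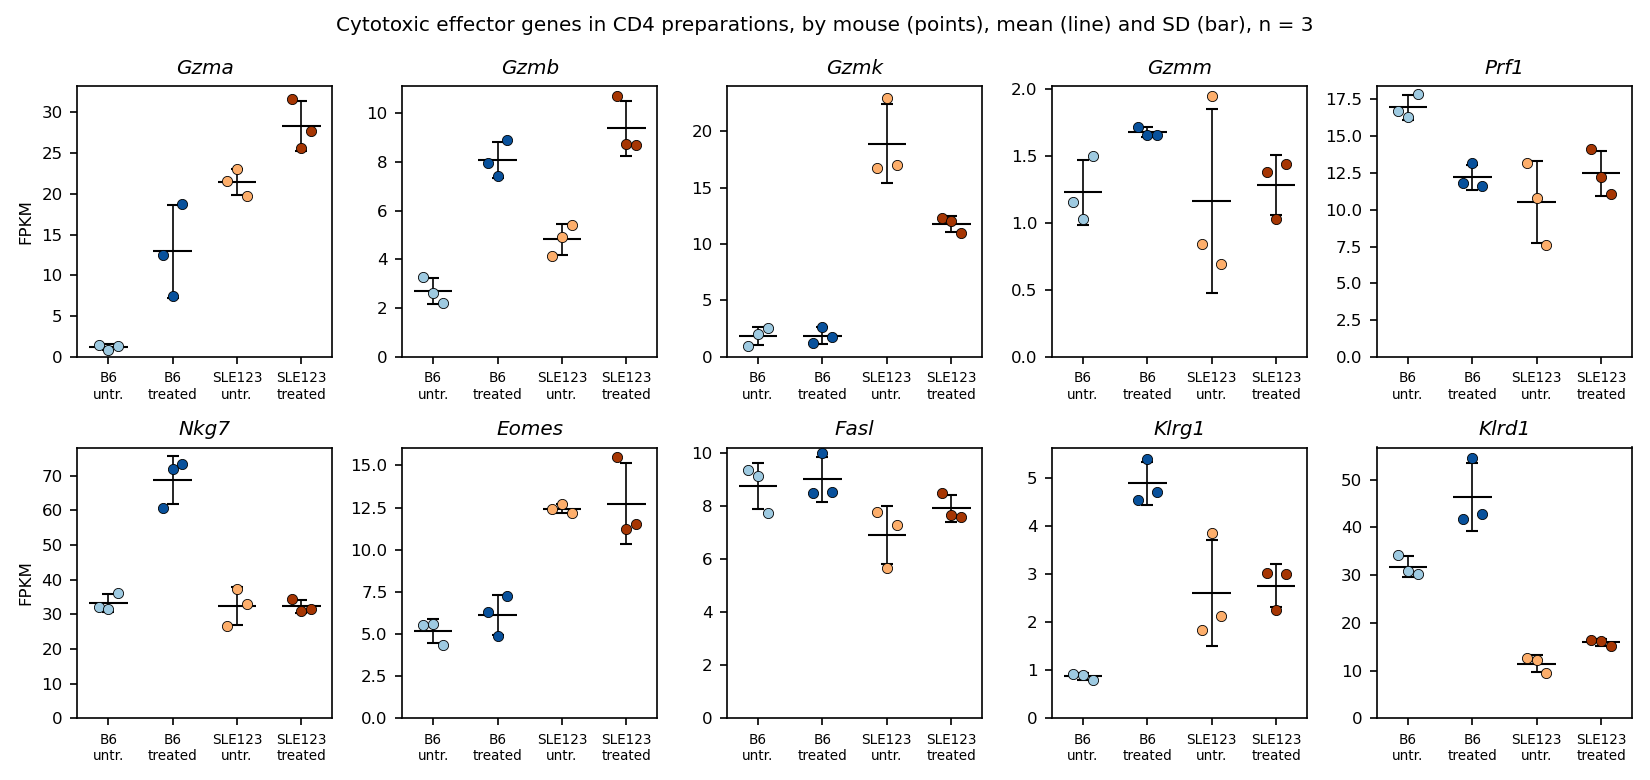
FPKM of the 10 cytotoxic effector genes (vertical axes, each from 0) in the 4 groups of 3 mice, with a point for each mouse, a line at the mean and a bar of 1 SD. Nkg7 and Klrg1 are highest in treated B6 mice, Gzmk and Eomes are high in both SLE123 groups, and Klrd1 is low in both.

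The summed level of the 4 granzymes was 6.97 ± 0.524 FPKM (SD, n = 3) in untreated B6, 24.6 ± 6.01 in treated B6, 46.3 ± 5.58 in untreated SLE123 and 50.8 ± 4.67 in treated SLE123. In untreated B6 mice Gzmb made up 39.2% of the sum, Gzmk 26.2%, Gzmm 17.5% and Gzma 17.0%, and in treated B6 mice Gzma made up 51.0% and Gzmb 33.7%. In untreated SLE123 mice Gzma made up 46.6% and Gzmk 40.5%, and with treatment Gzma made up 55.7%, Gzmk 23.3% and Gzmb 18.5%. The share of Gzmk was 17.2 percentage points lower with treatment in SLE123, from a range of 38.5% to 43.3% to one of 22.0% to 25.4%. The share of Gzmb was 7.96 points higher there, and both differences had the smallest p that an exact two-sided permutation test of 3 mice against 3 allows, 0.1. In B6 the share of Gzma was 33.9 points higher with treatment (exact permutation p = 0.1), and that of Gzmk 18.0 points lower with overlapping ranges (exact permutation p = 0.2). Of 16 such tests of shares, those at 0.1 had a Benjamini-Hochberg adjusted p of 0.133, and none can pass 0.05 with 3 mice a group. A share also moves with the other granzymes in the sum: the level of Gzmk itself was 1.84 ± 0.806 FPKM in untreated and 1.88 ± 0.725 in treated B6 mice.

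**Figure D2:**
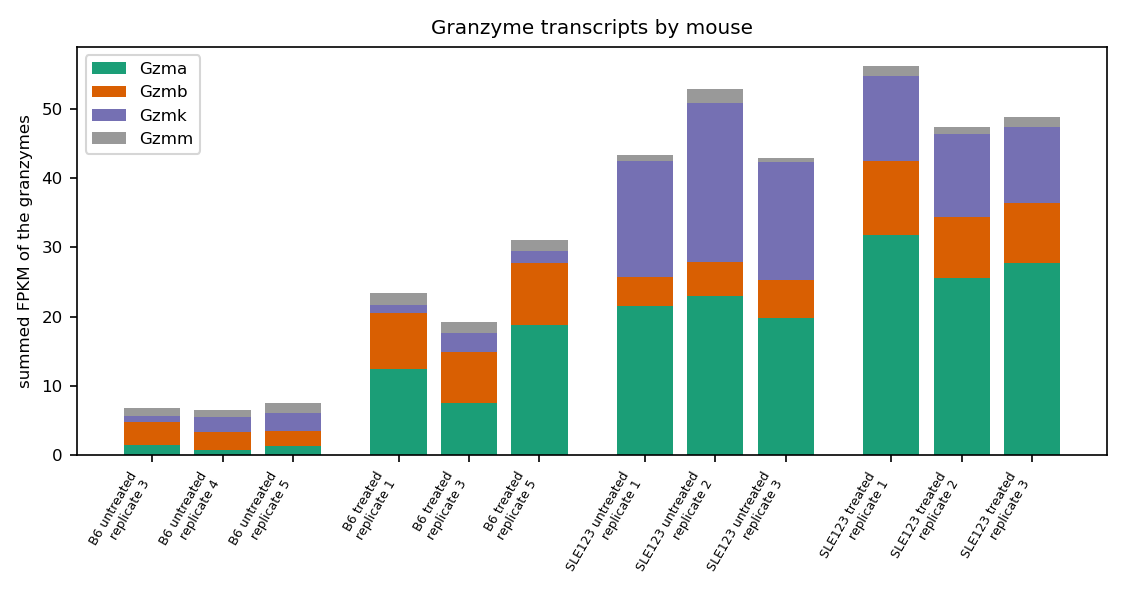
Summed FPKM of Gzma, Gzmb, Gzmk and Gzmm (vertical axis, from 0), stacked in a bar for each of the 12 mice. The sum is 6.5 to 7.53 FPKM in untreated B6 mice and at least 42.9 in every SLE123 mouse, and the Gzmk part is at most 2.67 FPKM in B6 mice and at least 11 in SLE123 mice.

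Prf1 encodes perforin. The gene lies on chromosome 10 (61297833 to 61304680, plus strand). Without treatment, B6 mice had 16.7, 16.3 and 17.9 FPKM and treated B6 mice 11.8, 13.2 and 11.6. In SLE123, untreated mice had 13.2, 10.8 and 7.58 FPKM and treated SLE123 mice 14.1, 12.2 and 11.1. Untreated B6 mice were above all 9 other mice, whose groups overlapped each other. Prf1 fell by 0.45 on the log2 scale in B6 with treatment (SE 0.064, limma adjusted p = 0.00750), while Gzma and Gzmb rose in the same mice. This call was lost when all 12 mice shared one fit (limma adjusted p = 0.114) and held as each mouse was left out (0.00836 to 0.0308). In SLE123 the difference was 0.25 ± 0.188 (limma adjusted p = 0.599), and the interaction of 0.69 ± 0.215 was not called (limma adjusted p = 0.0932). Untreated SLE123 was below untreated B6 by 0.67 (ratio 0.621, limma adjusted p = 0.0189), a call that was lost when any 1 of the untreated B6 mice was left out (limma adjusted p 0.0546 to 0.0669, with 0.00496 the lowest over all 6 mice left out in turn) and with no filter on low levels (0.0652). The treated strains differed by 0.02 ± 0.092 (limma adjusted p = 0.845).

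Nkg7 is a small protein of the granule membrane that is needed for efficient granule release. The gene lies on chromosome 7 (43437073 to 43438249, plus strand), the chromosome that carries Sle3, and whether it is inside the congenic region was not examined. Without treatment, B6 mice had 32.2, 31.5 and 36.1 FPKM and treated B6 mice 60.7, 72.0 and 73.4. In SLE123, untreated mice had 26.5, 37.3 and 33.1 FPKM and treated SLE123 mice 34.4, 31.1 and 31.4. Treated B6 mice stood above all others, and the other groups overlapped. The difference with treatment was 1.02 ± 0.084 in B6 (limma adjusted p = 0.00114) and 0.01 ± 0.127 in SLE123 (limma adjusted p = 0.970), and the interaction was -1.01 ± 0.163 (limma adjusted p = 0.00790). Treated SLE123 was below treated B6 at a ratio of 0.471 (-1.06 ± 0.080, limma adjusted p = 0.000107), and the untreated strains differed by -0.05 ± 0.130 (limma adjusted p = 0.767). Rescaled to TPM, Nkg7 was called lower in untreated SLE123 (-0.42, limma adjusted p = 0.0227), and it was not called with the 5 other scalings.

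Fasl encodes Fas ligand. The gene lies on chromosome 1 (161780689 to 161788495, minus strand), which carries Sle1, and its place relative to the congenic region was not examined. Without treatment, B6 mice had 9.35, 9.11 and 7.74 FPKM and treated B6 mice 8.50, 9.98 and 8.51. In SLE123, untreated mice had 7.76, 5.67 and 7.26 FPKM and treated SLE123 mice 8.47, 7.65 and 7.58. Fasl was called in none of the 5 comparisons. With treatment it differed by 0.04 ± 0.092 in B6 and 0.18 ± 0.122 in SLE123. SLE123 was 0.31 ± 0.130 lower than B6 without treatment (limma adjusted p = 0.0922) and 0.17 ± 0.078 lower with it (limma adjusted p = 0.118), and the latter was called with 4 of the 6 other scalings. The former was called with TPM (-0.64, limma adjusted p = 0.00839), with quantile normalization (-0.41, 0.0206) and with all 12 mice in one fit (-0.31, 0.0335).

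Eomes encodes eomesodermin, a T-box factor that drives granzyme and perforin genes in CD8+ T cells and NK cells. The gene lies on chromosome 9 (118478212 to 118486132, plus strand) and overlaps the antisense gene Gm33460, so that without strand the reads of both cannot be told apart. Without treatment, B6 mice had 5.55, 5.59 and 4.33 FPKM and treated B6 mice 6.30, 4.89 and 7.23. In SLE123, untreated mice had 12.4, 12.7 and 12.2 FPKM and treated SLE123 mice 15.5, 11.2 and 11.5. Every SLE123 mouse was above every B6 mouse, and within each strain the treatment groups overlapped. SLE123 exceeded B6 by 1.13 ± 0.107 without treatment (limma adjusted p = 0.000242) and by 0.95 ± 0.159 with it (limma adjusted p = 0.00259). The differences with treatment were 0.21 ± 0.144 in B6 and 0.02 ± 0.126 in SLE123, neither of them called (limma adjusted p = 0.362 and 0.951).

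Klrg1 encodes an inhibitory receptor for cadherins that marks terminally differentiated effector T cells and mature NK cells. The gene lies on chromosome 6 (122270596 to 122282882, minus strand). Without treatment, B6 mice had 0.921, 0.899 and 0.791 FPKM, from 18 to 23 fragments a mouse, and treated B6 mice had 4.54, 5.40 and 4.71 FPKM. In SLE123, untreated mice had 1.84, 3.86 and 2.12 FPKM and treated SLE123 mice 3.02, 2.25 and 3.01. The SLE123 groups overlapped each other and lay between the B6 groups. The rise with treatment in B6 was 1.65 ± 0.086 (limma adjusted p = 0.000363), the smallest adjusted p of the 10 genes there. In SLE123 the difference was 0.09 ± 0.214 (limma adjusted p = 0.872), and the interaction was -1.56 ± 0.246 (limma adjusted p = 0.00683). SLE123 was 0.91 ± 0.202 higher than B6 without treatment (limma adjusted p = 0.0103) and 0.65 ± 0.109 lower with it (ratio 0.566, limma adjusted p = 0.00259).

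Klrd1 encodes CD94, the partner of the NKG2 receptors, which recognise nonclassical MHC class I. The gene lies on chromosome 6 (129591782 to 129598775, plus strand). Without treatment, B6 mice had 34.3, 30.9 and 30.2 FPKM and treated B6 mice 41.8, 54.5 and 42.8. In SLE123, untreated mice had 12.7, 12.2 and 9.53 FPKM and treated SLE123 mice 16.5, 16.3 and 15.1. No groups overlapped, and both SLE123 groups were below both B6 groups, whereas for Gzma both were above. SLE123 was at 0.361 of the B6 level without treatment (-1.40 ± 0.117, limma adjusted p = 0.000142) and at 0.345 with it (-1.47 ± 0.102, limma adjusted p = 7.98e-05). With treatment the difference was 0.52 ± 0.104 in B6 (limma adjusted p = 0.0218) and 0.46 ± 0.115 in SLE123 (limma adjusted p = 0.423). The interaction was -0.07 ± 0.165 (limma adjusted p = 0.836), so the treatment effects were not shown to differ although only that in B6 was called. The call in B6 was lost without untreated B6 replicate 4 (limma adjusted p = 0.0822) and without untreated B6 replicate 5 (0.0622), the range over the 6 mice left out being 0.0193 to 0.0822, and with no filter on low levels (0.0903).

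**Figure D3:**
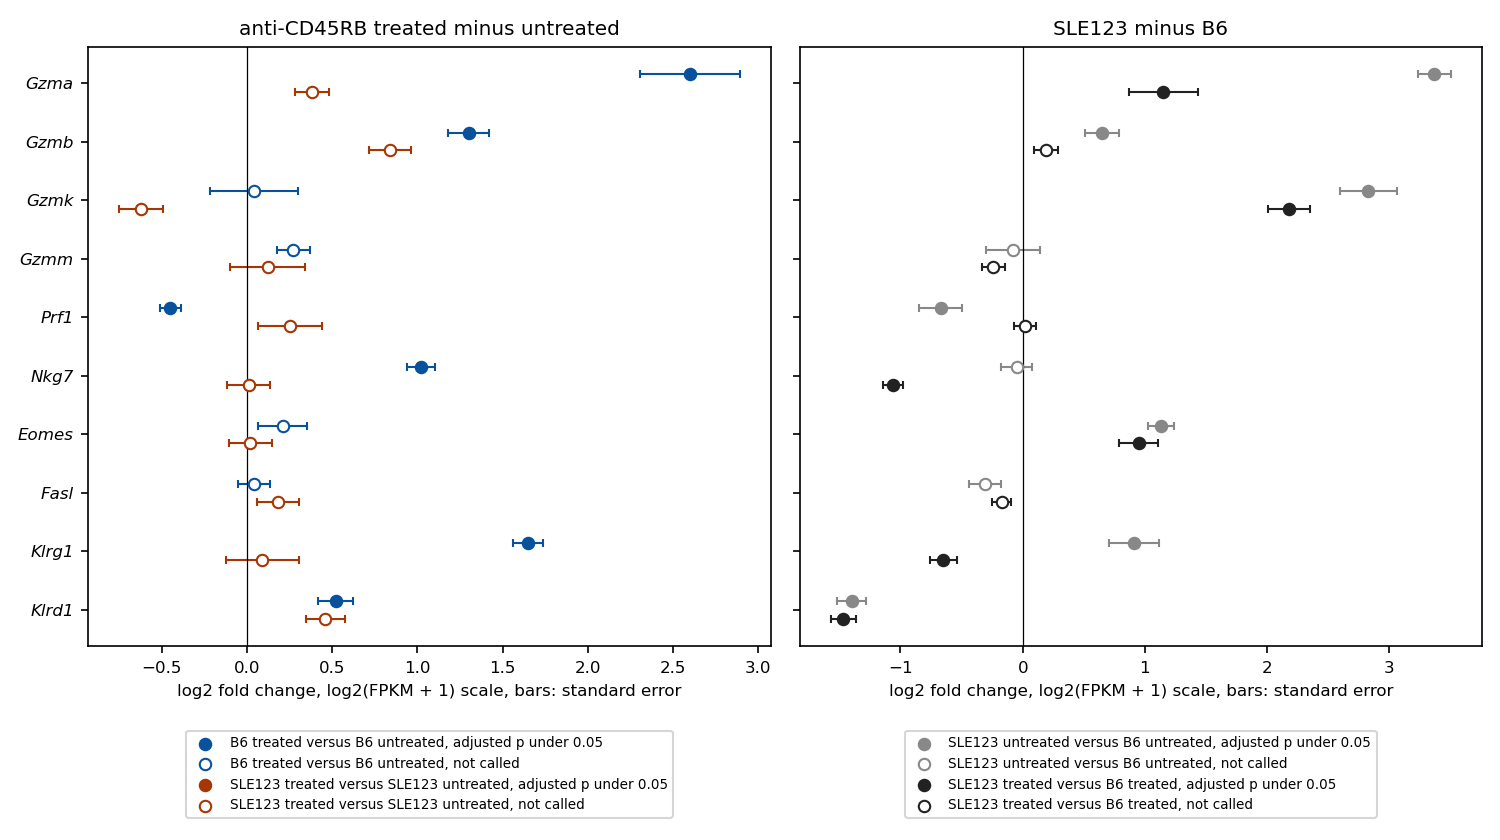
Log2 fold changes, computed from log2(FPKM + 1), of the cytotoxic genes (horizontal axes) with standard errors as bars, for anti-CD45RB treated minus untreated mice in each strain (left) and SLE123 minus B6 without and with treatment (right). Filled points passed the limma threshold, and no SLE123 treatment point is filled, while 6 of 10 are in B6.

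Read across the genes, 3 of the 10 responded to treatment differently in the strains, all with the smaller effect in SLE123: Gzma, Klrg1 and Nkg7. Of all genes tested, 3.64% passed the interaction test and 2.38% passed with a lower effect in SLE123 (1.27% with a higher one). Without untreated SLE123 replicate 1 the count was 5, with Gzmb (-0.55) and Prf1 (0.86, so in the opposite direction) added. All genes called went from 478 to 2917 of 13115 in that setting, 1981 of them higher and 936 lower. Treated and untreated B6 mice did not overlap for 7 of the 10 genes (38.0% of all genes), and treated and untreated SLE123 mice for 4 (19.7% of all genes), namely Gzma, Gzmb and Klrd1, higher with treatment, and Gzmk, lower. Between the treated strains 6 of the 10 were called against 52.1% of all genes (29.6% higher and 22.5% lower) and 8 did not overlap against 61.8%, with Gzma, Gzmk and Eomes higher and Nkg7, Klrg1 and Klrd1 lower in SLE123. The counts between strains depended on the scaling. Rescaled to TPM, the median of all genes moved from -0.025 to -0.343 between the untreated strains, and 4 of the 10 genes were higher and 4 lower in SLE123. Over all genes the same rescaling turned 2990 higher and 2631 lower calls into 1912 and 5989. The median log2 fold change of the 10 genes was 0.40 in B6 with treatment (all genes -0.00) and 0.15 in SLE123 (all genes 0.04).

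The machinery that loads and releases granules was followed in a list of 12 further genes, whose members, like those of the lists below, were picked with earlier results of these data known. In B6 mice 5 of the 12 rose with treatment and none fell, where 8.74% of all genes were called higher and 6.12% lower. Their median was 0.21 (all genes -0.00). Cathepsin W (Ctsw) went from 66.4 ± 4.08 to 87.1 ± 2.82 FPKM (SD, n = 3). Cathepsin C (Ctsc), which activates granzymes, went from 19.3 ± 0.619 to 23.7 ± 1.16, and serglycin (Srgn), the proteoglycan that packs them, from 109 ± 3.08 to 132 ± 10.4. In SLE123 none of the 12 passed (smallest limma adjusted p = 0.466), where 0.0381% of all genes did. The interaction was called for 1 of the 12, against 3.64% of all genes. This was Lamp1, a protein of the lysosome and granule membrane (-0.39 ± 0.071, limma adjusted p = 0.0144). Between the untreated strains 5 were higher and 1 lower in SLE123, and 42.9% of all genes were called there. Stx11, a syntaxin needed for granule fusion, was at 41.9 ± 4.47 FPKM against 4.97 ± 0.697 in B6 (8.43-fold, limma adjusted p = 8.76e-06). Srgn was 2.24-fold and Cst7, an inhibitor of the granzyme-activating cathepsins, 2.78-fold higher in SLE123. The 1 gene that was lower was Lyst, a lysosomal trafficking regulator, at 7.33 ± 2.84 against 14.6 ± 1.55 FPKM.

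Of the 6 other granzymes, Gzmc alone passed the filter, at 0.633 ± 0.321 FPKM in untreated and 1.13 ± 0.405 in treated B6 mice (limma adjusted p = 0.221). Gzmd, Gzme, Gzmg and Gzmn were listed at 0 in all 12 mice, and Gzmf was at most 0.0656 FPKM. How the counting treated reads that fit several of these similar genes is not given in the sources used here.

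Among 9 transcription factors of cytotoxic lymphocytes, 5 rose with treatment in B6 and none in SLE123 (smallest limma adjusted p there 0.141). Of all genes, 8.74% were called higher and 6.12% lower in B6, and 0.0381% were called in SLE123. Tbx21, which encodes T-bet, went from 10.3 ± 0.653 to 14.7 ± 0.872 FPKM in B6 (limma adjusted p = 0.00660). Hopx went from 7.49 ± 0.476 to 13.2 ± 0.941, Bhlhe40 from 6.97 ± 0.460 to 11.3 ± 0.574 and Irf8 from 5.14 ± 0.246 to 10.5 ± 1.99. Between the untreated strains 7 of the 9 were higher and 1 lower in SLE123, with a median of 1.03, against 42.9% of all genes called. Bhlhe40 was 4.77-fold and Prdm1, which encodes Blimp-1, 4.62-fold higher. Plasma cell markers summed to 63.0 ± 10.8 FPKM in untreated B6 and 3298 ± 1612 in untreated SLE123, and their part in the Prdm1 level was not tested. Of the 5 comparisons, Runx3 was called in that of the treated strains, where it was at 29.1 ± 0.574 FPKM in SLE123 and 33.2 ± 0.679 in B6. Zfp683, which encodes Hobit, was lower in untreated SLE123 than in untreated B6 (12.5 ± 3.12 against 20.3 ± 0.678 FPKM), and its interaction of 1.13 ± 0.191 was called (limma adjusted p = 0.00985). With treatment Zfp683 was at 26.7 ± 0.523 FPKM in SLE123, a rise that was not called, and at 19.5 ± 2.41 in B6. The interaction was called in the other direction for Hopx (-0.98 ± 0.211, limma adjusted p = 0.0307) and Irf8 (-1.31 ± 0.226, 0.0105).

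Among 14 cytokines, chemokines and receptors of cytotoxic lymphocytes, 9 rose and 3 fell with treatment in B6. Of all genes, 8.74% were called higher and 6.12% lower there. The chemokine Ccl3 went from 0.741 ± 0.386 to 13.3 ± 4.70 FPKM (18.0-fold), Ccl4 from 0.523 ± 0.253 to 5.61 ± 1.60 and Ccl5 from 57.5 ± 2.0 to 200 ± 31.4. Crtam, an adhesion receptor of cytotoxic CD4+ T cells, fell from 5.58 ± 0.364 to 3.43 ± 0.294, and Tnf and Fas, the receptor of Fas ligand, were the others that fell. In SLE123 none of the 14 passed (smallest limma adjusted p = 0.178), where 0.0381% of all genes did. The interaction was called lower in SLE123 for Ccl3, Ccl4 and Ccl5 and higher for Crtam and Tnfsf10, which encodes the death ligand TRAIL. Of all genes, 2.38% were called lower and 1.27% higher in that test. Between the untreated strains 9 of the 14 were higher in SLE123 and none lower, against 42.9% of all genes called, Ifng among them at 24 ± 3.52 against 9.72 ± 1.05 FPKM (limma adjusted p = 0.000394).

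Markers of other cytotoxic cells moved with some of these results. The 8 CD4 T cell markers summed to between 1730 and 2209 FPKM in every library. In B6 their sum was 2077 to 2130 FPKM without and 1946 to 1999 with treatment. There 3 of the 8 were called lower, against 6.12% of all genes. The 8 NK cell markers summed to 60.8 to 72.0 FPKM in treated B6 mice, 17.4 to 21.4 in untreated B6, 17.1 to 32.5 in untreated SLE123 and 18.9 to 23.5 in treated SLE123. Klrc2, Klre1 and Tyrobp rose with treatment in B6, as did Ncr1 and Klra8, which passed the filter on low levels through treated B6 mice alone, so no count of risers is given. Klrb1c was not called (limma adjusted p = 0.0815), and Klra4 and Klri2 were under the filter. Ncr1, which encodes the NK receptor NKp46, was 5.35 to 6.40 FPKM in treated B6 mice and at most 1.10 in each of the other 9. Klra8 was 1.09 to 2.63 FPKM in treated B6 mice and at most 0.359 elsewhere, and it was listed at 0 in 1 untreated B6 mouse, 2 untreated SLE123 mice and 2 treated SLE123 mice. The part of these genes in the rises of Gzma, Gzmb, Nkg7, Klrg1 and Klrd1 in B6 was not tested. Between the untreated strains, where Gzma and Gzmk differed most, Ncr1 was 0.259 to 0.499 FPKM in B6 and 0.202 to 1.10 in SLE123. Of the 6 tested NK markers 1 was higher in SLE123 (Tyrobp) and 1 lower (Klrb1c), against 42.9% of all genes called. Tyrobp did not follow Ncr1 there, at 11.3 to 22.8 FPKM in untreated and 5.70 to 6.77 in treated SLE123.

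Cd8a was at most 1.92 FPKM in any mouse. Its mean was 1.14 ± 0.685 in treated B6 and 0.209 ± 0.0494 in untreated B6. In SLE123 it was 0.216 ± 0.133 without and 0.292 ± 0.0627 with treatment. Cd8a was below the filter, so it was not tested. Cd8b1 was 10.9 to 12.8 FPKM in untreated B6, 12.1 to 17.4 in treated B6, 3.88 to 5.55 in untreated SLE123 and 5.50 to 7.33 in treated SLE123, lower in SLE123 as Klrd1 was (limma adjusted p = 0.000759 without and 0.000909 with treatment). Of the gamma delta T and NKT cell markers, Tcrg-C1 and Tcrg-C2 rose with treatment in B6, Tcrg-C1 from 15.1 ± 2.81 to 27.7 ± 1.48 FPKM. Their summed level was 34.8 to 45.2 FPKM in untreated B6, 62.6 to 69.9 in treated B6, 26.5 to 31.6 in untreated SLE123 and 35.4 to 48.0 in treated SLE123. The part of either set in the results was not tested.

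**Figure D4:**
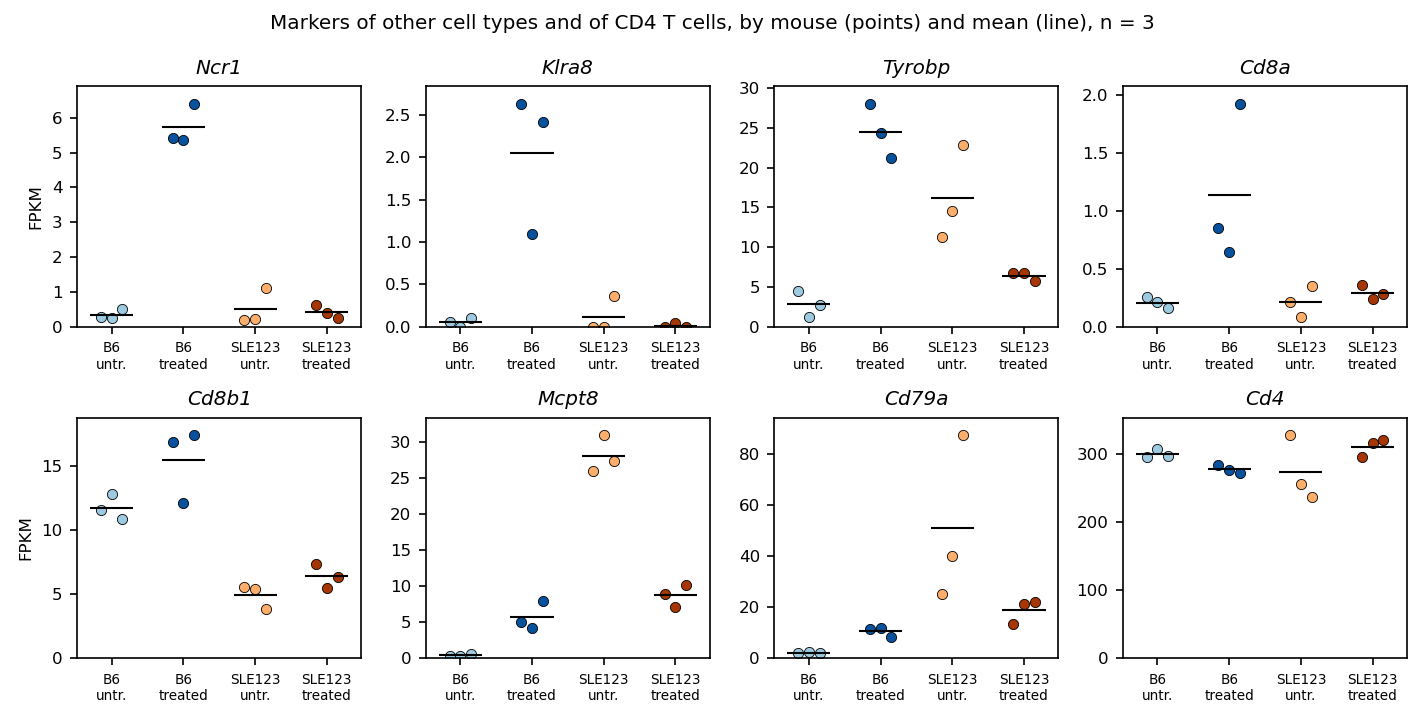
FPKM (vertical axes, from 0) of listed marker genes in the 12 mice, with a point for each mouse and a line at the mean. The genes are from the lists for NK cells (Ncr1, Klra8, Tyrobp), CD8+ T cells (Cd8a, Cd8b1), basophils (Mcpt8), B cells (Cd79a) and CD4+ T cells (Cd4). Ncr1 is 5.35 to 6.40 FPKM in treated B6 mice and at most 1.10 in the others, and Mcpt8 is highest in untreated SLE123 mice.

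Transcripts of cells that should be absent also differed between groups. Basophil and mast cell markers summed to 2.41 to 3.04 FPKM in untreated B6, 12.4 to 28.9 in treated B6, 96.3 to 108 in untreated SLE123 and 28.9 to 36.4 in treated SLE123. Mcpt8 and Prss34 were called lower with treatment in SLE123, where none of the 10 cytotoxic genes was called. B cell markers summed to 5.97 to 7.07, 23.5 to 32.0, 61.0 to 217 and 36.0 to 55.7 FPKM in these groups, monocyte and neutrophil markers to 2.38 to 7.83, 44.2 to 107, 38.4 to 83.1 and 19.3 to 46.0, and plasma cell markers to 55.8 to 75.4, 90.9 to 193, 1965 to 5090 and 1053 to 1936. Plasmacytoid dendritic cell markers summed to between 20.8 and 27.8 FPKM in every group, mostly from Pacsin1, which fell from 22.1 ± 0.0567 to 16.8 ± 0.671 FPKM with treatment in B6. Siglech, which was under the filter, was at 0.0970 ± 0.0798 FPKM in untreated and 1.26 ± 0.986 in treated B6 mice. Liver transcripts, at 40.2 to 47.2 FPKM in the 6 B6 libraries, were at most 0.368 in the SLE123 libraries apart from treated SLE123 replicate 1, which stood at 44.9. Without that library the counts of cytotoxic genes called were 0 with treatment in SLE123, 6 between the treated strains and 3 for the interaction, as with it. Of all 13115 genes, 4, 6685 and 272 were called without it and 5, 6836 and 478 with it. Otherwise liver transcripts followed strain, so leaving that library out cannot separate them from strain. The part of these cells in the results was not tested.

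The state of the T cells was followed by 3 further lists. Naive T cell markers summed to 1926 to 1989 FPKM in untreated B6, 1789 to 1949 in treated B6, 661 to 1199 in untreated SLE123 and 1107 to 1350 in treated SLE123, and all 7 were lower in SLE123 than in B6 in both comparisons of strains. Memory and effector markers were higher in SLE123 for 6 of 7 and lower for 1 in both, and 4 of 7 rose with treatment in B6. The shares of all genes called were 42.9% between the untreated strains, 52.1% between the treated strains and 14.9% with treatment in B6. Regulatory T cell markers were higher in SLE123 for 4 of 5 in both, at 153 to 163 FPKM against 42.2 to 54.6 in untreated mice, and none of the 5 was called with treatment in either strain (smallest limma adjusted p 0.0536 in B6 and 0.0989 in SLE123).

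The genes whose profiles over the 12 mice were most like those of the 10 were found by the root-mean-square difference of log2(FPKM + 1), each gene centred on its own mean, over the protein-coding genes tested. Closest to Gzma were Ccl4 (0.598, where the Gzma profile itself has a root-mean-square of 1.488) and Plek (0.599). Closest to Gzmk were Eif3j2 (0.286, against 1.298) and Prnp (0.292), which were at 0.670 and 1.24 FPKM in untreated B6 and at 9.54 and 10.6 in untreated SLE123. Closest to Gzmb was Klra9 (0.183), to Klrg1 Ccl5 (0.236), to Nkg7 Crip1 (0.147), to Klrd1 Ugcg (0.148), to Prf1 Crim1 (0.114), to Eomes Ifitm5 (0.170), to Fasl Spred2 (0.060) and to Gzmm Sh3bgrl3 (0.113). The second gene of each of these was Fcgrt, Trip10, Osgin1, Itgb3, Gpr171, Ikbip, Socs4 and Rpp21 in the same order. The likeness is a description over mice that share their groups.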

How the data were processed

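RNA of purified CD4+ T cells from 12 mice was sequenced, 1 library a mouse, and groups were taken from the strain and treatment labels. The authors deposited FPKM per Ensembl gene. The submitters' processing notes name CASAVA 1.8, STAR and mm10. The counting program and annotation are not given in the sources used here. GENCODE M21 (GRCm38) gave symbols and positions for 34490 of 35275 genes. The FPKM steps returned whole fragments, within 0.02, for 100% of the 23230 genes above 0, with totals of 13563594 to 23642949, so 3 fragments on a transcript of typical length are 0.0634 to 0.111 FPKM (counting error only).

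The 13115 genes averaging 0.5 FPKM or more were fitted on log2(FPKM + 1) with limma 3.58.1 in R 4.3.3 (lmFit, eBayes with trend, two-sided, Benjamini-Hochberg, threshold 0.05), 2 groups at a time, and all 12 mice for the interaction. The count test that the study used was not run here. The test based on counts was voom, on fragments recovered from FPKM. The p-values measure the spread between mice. No libraries of a group agreed within sampling noise.

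Alternatives were pseudocount, filter, scaling, voom on recovered fragments, robust moderation, all 12 mice, replicate block and each mouse left out. Scaling to CD4 T cell markers was added after seeing the data. The 10 genes and all lists were chosen with earlier results of these data known. Named genes are the 10, the listed genes called (at most 4 by adjusted p for each list and comparison), the highest and lowest marker, and 2 genes of similar profile for each member. Tnf, Fas, Lyst, Runx3, Zfp683, Tnfsf10 and Ifng were named after their values were seen where that rule does not reach them. Trdc, a listed marker, was not analysed here.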

Additional observations from a re-analysis of the deposited data

Results flagged for a closer look

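In 3 of the 10 genes the response to anti-CD45RB differed between the strains by a test of the difference itself (limma interaction over the 12 mice). Of all genes tested, 3.64% passed it. The log2 effect of treatment in SLE123 minus that in B6 was -2.22 for Gzma (0.38 in SLE123 and 2.60 in B6, adjusted p = 0.00596), -1.56 for Klrg1 (0.09 and 1.65, adjusted p = 0.00683) and -1.01 for Nkg7 (0.01 and 1.02, adjusted p = 0.00790). All 3 were higher in each of the 3 treated B6 mice than in each untreated one. Gzma was higher in each treated SLE123 mouse than in each untreated one, and Klrg1 and Nkg7 overlapped there. Over the 12 mice left out in turn the limma adjusted p ran from 0.00108 to 0.0222 for Gzma, 0.00222 to 0.0234 for Klrg1 and 0.00124 to 0.0293 for Nkg7. With the replicate number as a block all 3 calls were lost (limma adjusted p = 0.0525, 0.0742 and 0.0580 in this order). The listed NK cell markers differed from each other in their patterns over the groups. Ncr1 was at 5.73 ± 0.587 FPKM in treated and 0.349 ± 0.130 in untreated B6 (SD, n = 3). In SLE123 it was at 0.427 ± 0.193 with and 0.507 ± 0.517 without treatment. Tyrobp was at 2.84 ± 1.62 FPKM in untreated B6 and 16.2 ± 5.95 in untreated SLE123. Klrb1c was at 4.69 ± 1.13 FPKM without and 10.5 ± 0.987 with treatment in SLE123. Ncr1 and Klra8 passed the filter through treated B6 mice alone, so no count is given. The part of NK cell markers in these differences was not tested. The interaction was also called lower in SLE123 for 5 of 5 basophil and mast cell markers, 4 of 4 monocyte and neutrophil markers tested, 3 of 5 B cell markers and 3 of 7 memory and effector T cell markers, against 2.38% of all genes, and their part was not tested either.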

How the results depend on the processing

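Of 940 values of single genes under the alternatives, 869 kept their direction and side of the threshold, 20 lost the call, 17 gained one and 34 changed sign, all of the last uncalled in the main analysis. The precision is limited by 3 mice a group and, for Gzmm, Gzma and Klrg1 at their lowest, by 18, 13 and 18 fragments. With the replicate number as a block the count of members called was 0 for treatment in B6 (from 6, 6 at an unadjusted p below 0.05, 0 of 13115 genes called and 2466 unadjusted, limma) and 0 for the interaction (from 3, 4 unadjusted), while it stayed 6 between the treated strains and 0 for treatment in SLE123. In B6 only replicate numbers 3 and 5 occur in both groups, so the blocked effect rests on those mice. The loss of calls in B6 cannot be told apart from a loss of power. Whether the numbers pair the mice is not known here. Deviations of same-numbered mice correlated at -0.14 and -0.0936 in B6 and at 0.137, -0.161 and 0.266 in SLE123. Between the treated strains they correlated at 0.0647 and 0.143. With so few shared numbers these values can neither show nor exclude a pairing. The untreated strains share 1 number, so no block was fitted there. For treatment in SLE123 the count was 1 (Gzmb) with TPM and with all 12 mice, from 0. With each mouse left out, the counts were 5 to 6 (B6), 0 to 0 (SLE123), 6 to 7 (untreated strains), 6 to 6 (treated strains) and 3 to 5 (interaction, 5 without untreated SLE123 replicate 1, when all genes called went from 478 to 2917). All genes called for treatment in B6 were 1948, and 815 with all 12 mice, 1134 with no filter and 675 without untreated B6 replicate 4. Rescaled to TPM, the median of all genes moved from 0.038 to 0.197 for treatment in SLE123, from 0.028 to -0.123 between the treated strains and from 0.043 to 0.213 for the interaction, and between the treated strains 3 members were higher and 5 lower (all genes 2444 and 4487, from 3881 and 2955). Gzma between the treated strains was lost with no filter (limma adjusted p = 0.0609, with 0.00314 to 0.0393 as mice were left out).

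Signs changed as follows, on the log2 scale, and the cause was not tested. For treatment in B6, Gzmk was -0.04 with quantile normalization and as low as -0.21, with a highest value of 0.21, as mice were left out (-0.15 without treated replicate 3), and Fasl ran from -0.04 to 0.08 (-0.03 without treated replicate 3). For treatment in SLE123, Nkg7 and Eomes were -0.03 and -0.02 when centred on the median, -0.02 and -0.04 with quantile normalization and -0.08 and -0.07 scaled to CD4 T cell markers. As mice were left out, Nkg7 ran from -0.12 to 0.12, Eomes from -0.12 to 0.10, Klrg1 from -0.06 to 0.33 and Gzmm from -0.04 to 0.37. Between the untreated strains Nkg7 was -0.42 and called lower with TPM, 0.04 without immunoglobulin genes and 0.03 scaled to CD4 T cell markers, and ran from -0.16 to 0.08 as mice were left out (0.01 without untreated B6 replicate 5), as Gzmm did from -0.33 to 0.07 (0.00 and 0.01 among these). Between the treated strains Prf1 was -0.14 with TPM, -0.01 centred on the median, -0.08 with quantile normalization and -0.08 scaled to CD4 T cell markers, and ran from -0.06 to 0.10. For the interaction Klrd1 was 0.12 with TPM and ran from -0.18 to 0.05 (0.01 without untreated SLE123 replicate 1), Fasl was -0.03 scaled to CD4 T cell markers, and Gzmm ran from -0.31 to 0.09.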
